A study of Mus musculus with 6 samples.

Results

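Transcription factors that give macrophages their identity were examined in RNA-sequencing of bulk macrophages, which had been sorted from the Day 3 skin wounds of young and aged mice. The set held 9 genes, namely Spi1, Cebpa, Cebpb, Cebpd, Maf, Runx1, Nr4a1, Klf4 and Pparg, and each was taken by its exact gene symbol from the 15168 genes of the table. All mice were female C57BL6/J animals with no transgene or treatment named, and 2 full-thickness wounds of 10 mm were made on the back of each mouse. The young group had 3 samples from mice of 12 weeks and the aged group 3 samples from mice of 24 months, all taken 3 days after wounding. Wound tissue was digested with an enzyme blend, liberase, and CD45+CD11b+F4/80+CD64+ cells were sorted into lysis buffer. The gate held no step against Ly6G, a neutrophil protein. The mice were kept at one of 2 animal houses, which the labels do not assign to samples. The samples carry a set letter (A, B or C) in each age, but the meaning of the letter and the number of mice behind a sample are not given, so p-values here measure the spread between these samples.

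Macrophage identity rests on a few DNA-binding proteins that act together. PU.1, the ETS protein encoded by Spi1, opens myeloid enhancers, and C/EBP proteins bind beside it, C/EBPα in progenitors and C/EBPβ and C/EBPδ in activated cells. RUNX1 prepares the Spi1 locus during blood cell development, c-Maf (Maf) restrains proliferation in mature macrophages, and NR4A1 (Nur77), KLF4 and PPARγ take part in the fate of monocytes and in lipid handling or alternative activation.

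In aged macrophages the C/EBP genes of activated cells and Runx1 were higher, whereas Spi1 did not differ beyond the spread between samples. Cebpb rose 1.70-fold, Cebpd 1.63-fold and Runx1 1.88-fold. Mean levels of Cebpa, Maf, Nr4a1, Klf4 and Pparg were lower in aged samples, but none of these 5 genes passed the test. Of the 9 genes, all had enough counts to be tested, 3 were higher and 0 lower in aged macrophages (edgeR quasi-likelihood test, Benjamini-Hochberg adjusted p-value under 0.05 over the 11878 genes tested). Across all genes tested, 17.7% passed in either direction, 9.73% with higher and 7.97% with lower values in aged samples. At an unadjusted p-value under 0.05, 4 of the 9 genes passed, against 34.5% of all genes. A fold change over 2 with an adjusted p-value under 0.05 was reached by 0 of the 9 and by 8.79% of all genes. Without the young sample of set C, or without the aged sample of set C, 0 of the 9 passed, but the calls among all genes fell as well, to 218 of 12219 and 545 of 12245. Between 1 and 3 of the 9 passed without each of the other samples, with 765 to 2702 genes of all. With library totals in place of the scaling of edgeR (TMM), the log2 fold changes of Cebpb and Cebpd were 0.57 and 0.53 and only Runx1 passed.

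Sample totals ran from 15270103 to 17927483 counts, and 1 count was worth 0.0553 to 0.0701 CPM (counts brought to a common library size). The genes of the 4 proteins used for the sort were present in every sample, Ptprc (CD45) at 190.2 to 308 CPM, Itgam (CD11b) at 334 to 402 CPM in young and 702 to 822 CPM in aged samples, Adgre1 (F4/80) at 289.6 to 357 CPM in young and 172 to 241 CPM in aged samples, and Fcgr1 (CD64) at 422 to 514 CPM. Itgam and Cd14 were higher and Adgre1 and C1qa lower in aged samples among the 10 macrophage markers (Adgre1 log2 fold change -0.69, edgeR adjusted p = 0.0292). Ly6g lay between 6.14 and 10.9 CPM. The sum of the 13 neutrophil markers in the table was 579 to 1027 CPM in young and 790 to 1432 CPM in aged samples, with 4 of 12 tested markers higher in aged (Cd177, Cxcr2, Lcn2 and Retnlg). This count and those of the markers below stand beside 9.73% higher and 7.97% lower over all genes tested. The sum of keratinocyte markers was 2.05 to 3.37 CPM in young samples and 3.77, 9.81 and 180 CPM in aged sets C, A and B, and that of fibroblast markers was also highest in aged set B, at 123 CPM. Of 7 tested erythroid and platelet markers, the 4 haemoglobin genes were lower and Ppbp higher in aged samples, and of 7 inflammatory monocyte markers Vcan was higher. Pecam1 was higher among 3 tested endothelial markers. Among 3 tested lymphocyte markers Cd4 was lower, but it was scarce, at 1.72 to 2.82 CPM in young and 0.350 to 1.15 CPM in aged samples. Cd4 passed the filter on low counts only through the young group, so its call is no support for a direction of these markers. The sum of mast cell markers was 26.5 to 96.2 CPM in young samples and 67.2, 1.02 and 0.741 CPM in aged sets A, B and C. Dendritic cell markers summed to 76.7, 26.0 and 27.2 CPM in young sets A, B and C. In aged sets A, B and C they summed to 110, 40.3 and 48.2 CPM, and 0 of 7 tested passed. The part of these other transcripts in the values of the 9 factors was not tested. In bulk RNA, fewer cells of a type and less RNA per cell cannot be told apart.

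**Figure D1:**
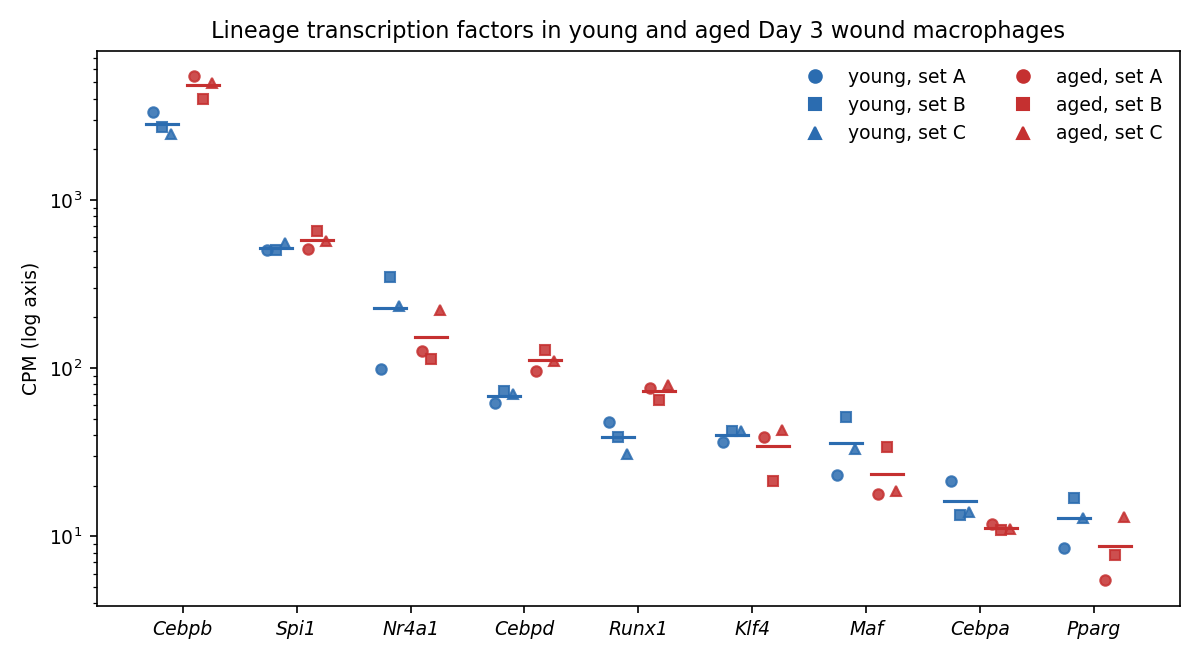
CPM on a log axis of the 9 lineage transcription factors in each sample, with young samples in blue, aged samples in red, a symbol for each set letter and a line at the mean of each age (n = 3). For Cebpb, Cebpd and Runx1 all aged points lie above all young points, and for Cebpa all aged points lie below all young points.

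Levels of different genes were compared per kilobase of the longest coding transcript. By this measure Cebpb was the most abundant of the 9 factors in both ages, at 1887 ± 295 CPM per kilobase in young and 3201 ± 496 CPM per kilobase in aged samples (SD, n = 3). Spi1 came next at 256 ± 13.6 and 284 ± 33.4 CPM per kilobase, and Nr4a1 after it at 88.7 ± 48.8 and 60.1 ± 23.3 CPM per kilobase. Cebpd followed at 18.3 ± 1.496 and 29.9 ± 4.31 CPM per kilobase. The ranges of these 4 genes did not overlap with those of the next gene in either age. Klf4 came after them in young samples at 13.2 ± 1.14 CPM per kilobase. Runx1 (6.68 ± 1.42), Cebpa (6.17 ± 1.66), Pparg (6.02 ± 1.96) and Maf (5.61 ± 2.21) could not be ordered in young samples, since the ranges of neighbours overlapped. In aged samples Runx1 stood at 12.5 ± 1.36 CPM per kilobase, overlapping with Klf4 at 11.3 ± 3.82, and both lay above Cebpa (4.29 ± 0.190), Pparg (4.11 ± 1.81) and Maf (3.69 ± 1.44), which overlapped with each other. The place of Runx1 depended on the length used, since over all of its exons together it came ninth in young and sixth in aged samples.

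Spi1, at chr2:91082390-91115756 on the plus strand (mm10), encodes PU.1. Its values were 507, 503 and 553 CPM in young sets A, B and C and 514, 649 and 571 CPM in aged sets A, B and C. The lowest aged sample lay between young samples, so the ages overlapped. The log2 fold change of aged against young samples was 0.15 (standard error 0.17, 95% interval -0.22 to 0.52, edgeR adjusted p = 0.555), an interval that stays short of 2-fold in either direction. The value was 0.071 without aged set B, 0.23 without aged set A and -0.023 with library totals as the scaling, so it had no stable direction. Spi1 had the smallest spread of the 9 genes among young samples, with a coefficient of variation of 5.32%.

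Of 13 tested genes known to be activated by PU.1, 2 were higher and 2 lower in aged samples, and the others did not pass. Over all genes tested, 9.73% were higher and 7.97% lower. The median log2 fold change of the list was 0.12 beside -0.02 over all genes tested. Tlr4, the receptor for lipopolysaccharide, rose from 81.0 ± 13.6 to 234 ± 31.7 CPM (log2 fold change 1.53, edgeR adjusted p = 0.00202), and Itgam, the CD11b chain used in the sort, rose by a log2 fold change of 0.99 (adjusted p = 0.00735). Aif1, an actin-binding protein of macrophages, fell by 1.45 on the log2 scale (adjusted p = 0.00195). Ctss, a lysosomal protease, fell by 0.70 on the log2 scale (adjusted p = 0.0437). Csf1r, the receptor through which macrophages receive their survival signal, had a log2 fold change of 0.12 (adjusted p = 0.667). Among 12 tested relatives of PU.1 in the ETS family, 6 were higher and 0 lower in aged samples, with a median log2 fold change of 0.73. Etv6, a repressor needed in blood stem cells, rose from 36.9 ± 6.10 to 73.1 ± 5.91 CPM (log2 fold change 0.98, adjusted p = 0.00820), Elf4 from 9.84 ± 1.83 to 19.7 ± 0.238 CPM (adjusted p = 0.0122) and Ets2 by a log2 fold change of 0.91 (adjusted p = 0.0151). Spic, the close relative of PU.1 in iron-recycling macrophages, was at 11.6 ± 4.12 and 9.10 ± 2.96 CPM (log2 fold change -0.35, adjusted p = 0.470).

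Cebpb encodes C/EBPβ, a bZIP factor of inflammatory gene activation in macrophages. The gene has a single exon at chr2:167688915-167690418 on the plus strand (mm10). The 250 bases before its start (RefSeq, GRCm38.p6, chr2:167688665-167688914, plus strand) are shown because CREB acts on this gene through cyclic AMP response elements, and capitals mark matches to the half-site CGTCA or its reverse complement TGACG.
Cebpb: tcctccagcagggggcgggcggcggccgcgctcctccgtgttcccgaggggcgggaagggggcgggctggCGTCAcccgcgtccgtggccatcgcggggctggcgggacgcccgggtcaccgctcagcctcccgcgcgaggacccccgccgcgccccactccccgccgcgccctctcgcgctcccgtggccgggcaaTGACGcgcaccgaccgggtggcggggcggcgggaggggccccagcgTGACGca
The window held 3 such matches, the first at 180 to 176 bases and the others at 53 to 49 and 7 to 3 bases before the start, and 81.6% of its bases were G or C, where the mean over 32851 windows of the same length was 53.2%. A match on either strand was present in 17.8% of all windows. A match is a description of the letters and not a measured binding site.

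Cebpb was measured at 3327, 2726 and 2460 CPM in young sets A, B and C and at 5458, 3996 and 4991 CPM in aged sets A, B and C. The lowest aged sample exceeded the highest young one, and aged set B was the lowest of its group. The ages did not overlap for 4 of the 9 genes (Cebpa, Cebpb, Cebpd and Runx1), where the same was true of 38.2% of all genes tested. The mean rose from 2838 ± 444 to 4815 ± 746 CPM, and the log2 fold change was 0.76 (standard error 0.20, 95% interval 0.31 to 1.22, edgeR adjusted p = 0.0316). Among all genes tested, Cebpb ranked 43rd by mean CPM in young and 30th in aged samples. In 6 fits that each left out 1 sample, the log2 fold change lay between 0.67 and 0.90 and the adjusted p-value between 0.0205 and 0.131, with 2 of the 6 fits passing (those without young set A and without aged set B). Tmem189, a gene on the other strand, shares 908 bases with Cebpb. The library kit does not mark strand, so reads from the shared bases cannot be told apart. Tmem189 had 49132 counts over the 6 samples against 365306 for Cebpb, and its log2 fold change was 0.49 (edgeR adjusted p = 0.201).

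Cebpd encodes C/EBPδ, which responds early to inflammatory signals, and lies at chr16:15887286-15891031 on the plus strand. Its values were 62.4, 73.3 and 70.2 CPM in young sets A, B and C and 96.5, 129 and 111 CPM in aged sets A, B and C. All aged samples were above all young samples, and set B was the highest in both ages. The mean rose from 68.7 ± 5.60 to 112 ± 16.2 CPM, and the log2 fold change was 0.71 (standard error 0.17, 95% interval 0.34 to 1.08, edgeR adjusted p = 0.0208). Leaving out 1 sample at a time gave log2 fold changes of 0.61 to 0.81 and adjusted p-values of 0.0231 to 0.0904, with 3 of the 6 fits passing and not those without young set C, aged set B or aged set C. Spidr, a gene on the other strand that shares 1808 bases with Cebpd, had 1067 counts against 8638 for Cebpd (log2 fold change 0.06, edgeR adjusted p = 0.878).

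Cebpa encodes C/EBPα, the factor that commits progenitors to the myeloid lineage and slows their division. It lies at chr7:35119293-35121928 on the plus strand. Its window before the start (RefSeq, GRCm38.p6, chr7:35119043-35119292, plus strand) is shown beside that of Cebpb because the ratio of these relatives differs below, and capitals mark a TATAAA match.
Cebpa: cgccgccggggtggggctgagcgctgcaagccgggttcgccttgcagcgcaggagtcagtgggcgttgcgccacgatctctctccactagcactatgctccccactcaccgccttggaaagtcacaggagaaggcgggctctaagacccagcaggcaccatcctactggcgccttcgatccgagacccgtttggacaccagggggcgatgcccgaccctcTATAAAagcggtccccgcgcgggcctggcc
The match lay 30 to 25 bases before the start, and 12.4% of all windows held this motif on either strand. The window held no match to the CRE half-site, and 66.4% of its bases were G or C.

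Cebpa was measured at 21.2, 13.4 and 14.0 CPM in young sets A, B and C and at 11.8, 11.0 and 11.0 CPM in aged sets A, B and C. All aged samples were below all young samples, but young sets B and C lay close to the aged values and set A stood above them. The log2 fold change was -0.53 (standard error 0.22, 95% interval -1.02 to -0.03), with an unadjusted p-value of 0.0398 and an adjusted p-value of 0.124 in the edgeR test, so Cebpa did not pass. Without young set A the log2 fold change was -0.28 (adjusted p = 0.352 in the edgeR test). Its values rest on 169 to 384 counts per sample.

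A ratio of 2 genes within a sample does not depend on how libraries are scaled. The log2 ratio of Cebpb to Cebpa counts was 7.29, 7.67 and 7.46 in young and 8.85, 8.51 and 8.83 in aged samples. The mean ratio was 1.26 higher in aged samples on the log2 scale, from 7.47 ± 0.19 to 8.73 ± 0.19, and the ages did not overlap (exact permutation test over samples, two-sided, p = 0.1, below which 3 against 3 samples cannot go). The log2 ratio of Cebpd to Cebpa went from 2.11 ± 0.49 to 3.31 ± 0.27, a difference of 1.19 without overlap (exact permutation p = 0.1). The log2 ratio of Cebpd to Cebpb stood at -5.36 ± 0.33 in young samples and at -5.42 ± 0.44 in aged ones, with overlap (difference -0.06, exact permutation p = 0.9). These ratios are part of 4 computed, and no adjusted value can pass in this design. Per kilobase, Cebpb made up 98.0% ± 0.350 of the summed level of 5 C/EBP genes in young and 98.3% ± 0.463 in aged samples. The share of Cebpa was 0.318% ± 0.0420 in young and 0.133% ± 0.0174 in aged samples, again without overlap.

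**Figure D2:**
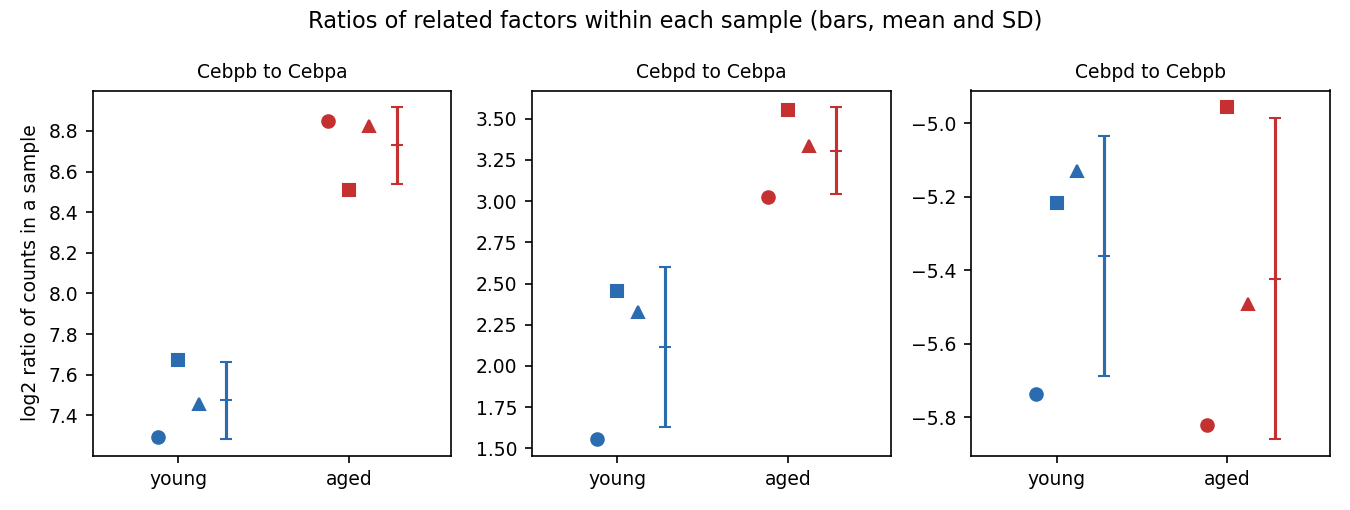
Log2 ratio of counts of a pair of related factors in each sample (circle set A, square set B, triangle set C), with bars at the mean and SD of each age (n = 3) and a separate axis range in each panel. The ages are apart for Cebpb to Cebpa and Cebpd to Cebpa, and overlap for Cebpd to Cebpb.

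Relatives and partners of the C/EBP proteins were tested for 5 genes, of which 2 were higher and 0 lower in aged samples, and their median log2 fold change was 0.72. The shares over all genes tested were 9.73% higher and 7.97% lower. Both genes that rose encode Tribbles pseudokinases, of which TRIB1 is known to bring C/EBPα to degradation. Trib1 was at 43.8, 27.5 and 23.1 CPM in young and 97.7, 74.1 and 97.7 CPM in aged samples (log2 fold change 1.51, edgeR adjusted p = 0.00618), and Trib3 rose from 3.00 ± 1.07 to 14.1 ± 3.85 CPM (log2 fold change 2.24, adjusted p = 0.00436). Cebpg, a C/EBP protein without an activation domain, was at 54.6 ± 10.1 and 79.3 ± 12.4 CPM (log2 fold change 0.54, adjusted p = 0.0722). Ddit3, which encodes the stress factor CHOP, had a log2 fold change of 0.41 (adjusted p = 0.209). Cebpe, the C/EBP gene of granulocytes, was low at 2.39 ± 0.396 and 3.95 ± 0.771 CPM (log2 fold change 0.72, adjusted p = 0.128).

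Genes known as targets of C/EBP proteins were higher in aged samples in 9 of 14 cases and lower in 0, and their median log2 fold change was 1.07. Over all genes tested, 9.73% were higher and 7.97% lower, and the median log2 fold change was -0.02. The list holds genes that the study names for these samples, such as Il1b and Il6, so it is no independent evidence of a direction. Ccl3, a chemokine for monocytes, rose from 301 ± 48.3 to 1332 ± 227 CPM (log2 fold change 2.15, edgeR adjusted p = 0.00127). Tnf rose by a log2 fold change of 1.07 (adjusted p = 0.0167), and Nos2, the inducible nitric oxide synthase, by 1.33 (adjusted p = 0.0186). Il6 rose from 12.5 ± 5.47 to 38.6 ± 16.3 CPM (log2 fold change 1.64, adjusted p = 0.0221). The remaining 5 were Il1b, Saa3, Ptgs2, Hp and Lcn2, and Lcn2 is also one of the neutrophil markers given above. Lyz2, the lysozyme of myeloid cells, was the only member of the list with a log2 fold change below 0 (-0.68, adjusted p = 0.0753). The part of neutrophil transcripts in the values of Cebpb, Cebpd and the targets was not tested.

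**Figure D3:**
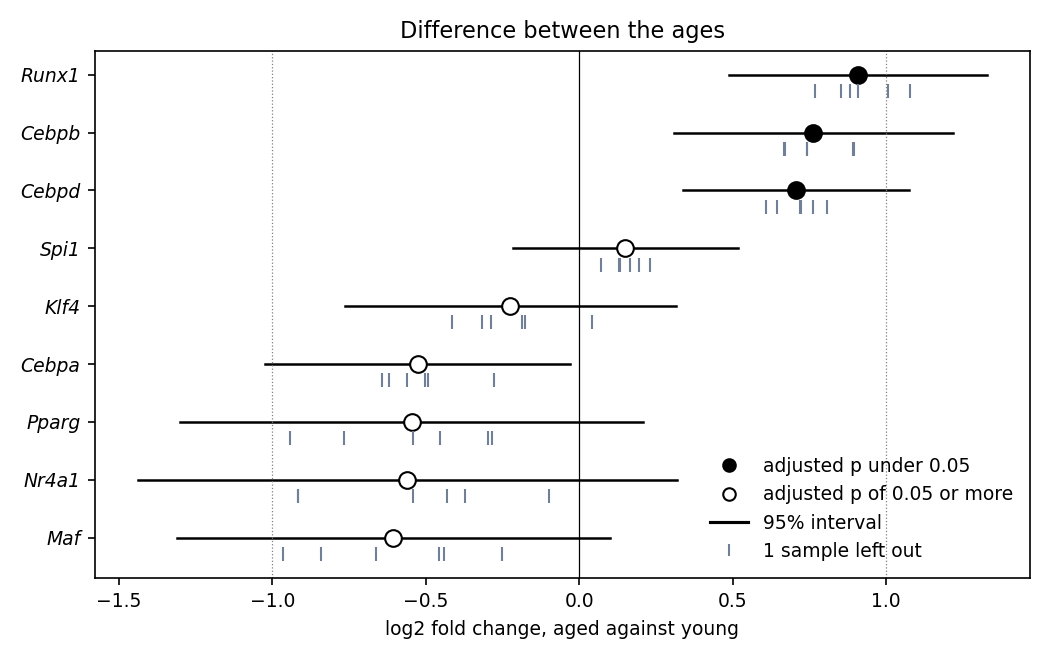
Log2 fold change of aged against young samples for the 9 factors, with the 95% interval of the edgeR fit, filled circles at an adjusted p under 0.05, and ticks for the 6 fits that each left out 1 sample. Runx1, Cebpb and Cebpd lie between 0.71 and 0.91, below the dotted line at 2-fold, and the ticks of Klf4 fall on both sides of 0.

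Runx1 had the largest log2 fold change of the 9 genes. It encodes the DNA-binding subunit of core-binding factor, lies on the minus strand at chr16:92601466-92826149 and is transcribed from a distal and a proximal promoter that give different first exons. Gene-level counts do not separate these starts, so both windows (RefSeq, GRCm38.p6, minus strand) are shown, the distal one at chr16:92826075-92826324 and the proximal one at chr16:92697330-92697579, with capitals at a match to the PU.1 core GAGGAA or its reverse complement TTCCTC.
Runx1 distal: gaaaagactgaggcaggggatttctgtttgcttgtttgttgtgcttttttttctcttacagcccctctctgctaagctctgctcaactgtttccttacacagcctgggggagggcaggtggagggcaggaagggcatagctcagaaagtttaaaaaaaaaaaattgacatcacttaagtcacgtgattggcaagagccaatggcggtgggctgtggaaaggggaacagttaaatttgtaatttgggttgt
Runx1 proximal: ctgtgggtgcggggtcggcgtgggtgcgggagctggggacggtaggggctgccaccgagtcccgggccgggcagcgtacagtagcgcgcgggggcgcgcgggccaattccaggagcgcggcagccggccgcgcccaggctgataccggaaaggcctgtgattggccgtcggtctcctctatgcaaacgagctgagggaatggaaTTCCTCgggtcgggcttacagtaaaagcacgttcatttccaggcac
The distal window held none of the 7 motifs searched and 45.6% G or C. The proximal window held 67.6% G or C and the PU.1 core on the opposite strand 46 to 41 bases before the start, a motif found in 23.3% of all windows.

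Values of Runx1 were 47.7, 38.7 and 31.0 CPM in young sets A, B and C and 76.5, 64.5 and 79.6 CPM in aged sets A, B and C. The lowest aged sample was above the highest young sample. The mean rose from 39.1 ± 8.33 to 73.5 ± 7.97 CPM, and the log2 fold change was 0.91 (standard error 0.19, 95% interval 0.49 to 1.33, edgeR adjusted p = 0.0146). Leaving out 1 sample at a time gave log2 fold changes of 0.77 to 1.08 and adjusted p-values of 0.00543 to 0.0782. The test was passed in 3 of these 6 fits, and not without young set B, young set C or aged set C. An antisense gene over Runx1, Gm26626, had 34 counts in all samples together against 5386 for Runx1.

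Among 5 tested partners of Runx1, 1 was higher and 0 lower in aged samples, with a median log2 fold change of 0.28. Over all genes tested, 9.73% were higher and 7.97% lower. Runx2, the related factor best known from bone, was at 5.70, 1.47 and 1.98 CPM in young and 10.9, 9.81 and 8.83 CPM in aged samples (log2 fold change 1.68, edgeR adjusted p = 0.0279). Runx3 had a log2 fold change of -0.30 (adjusted p = 0.350). Cbfb, the subunit that stabilises RUNX proteins on DNA, had one of 0.28 (adjusted p = 0.287).

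Maf encodes c-Maf, which helps to hold macrophages in a non-dividing, mature state. It lies at chr8:115682942-115707794 on the minus strand. Its values were 23.3, 51.0 and 32.8 CPM in young sets A, B and C and 17.8, 34.0 and 18.5 CPM in aged sets A, B and C. Set B was the highest and set A the lowest in both ages, and the ages overlapped. The log2 fold change was -0.61 (standard error 0.32, 95% interval -1.31 to 0.10, edgeR adjusted p = 0.205). Without young set B the value was -0.25, and without aged set B it was -0.96. With the set letter as a replicate block it was -0.60 and Maf passed (edgeR adjusted p = 0.0466), but the letters were not taken to pair the samples.

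Of 11 tested genes of c-Maf-dependent macrophages, 0 were higher and 3 lower, with a median log2 fold change of -0.04. These 3 are the chains of complement C1q. Over all genes tested, 9.73% were higher and 7.97% lower. C1qb fell from 2913 ± 129 to 1414 ± 326 CPM (log2 fold change -1.04, edgeR adjusted p = 0.0123), C1qa by 1.09 on the log2 scale (adjusted p = 0.0130) and C1qc by 0.92 (adjusted p = 0.0199). Il10, an anti-inflammatory cytokine, had a log2 fold change of -0.03 (adjusted p = 0.955). Mrc1, the mannose receptor, had one of -0.04 (adjusted p = 0.944).

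Nr4a1, an orphan nuclear receptor induced within minutes of many stimuli and needed by Ly6C-low monocytes, lies at chr15:101254269-101274795 on the plus strand. The window before its RefSeq start (GRCm38.p6, chr15:101266596-101266845, plus strand) is shown for its CRE half-sites, which are in capitals.
Nr4a1: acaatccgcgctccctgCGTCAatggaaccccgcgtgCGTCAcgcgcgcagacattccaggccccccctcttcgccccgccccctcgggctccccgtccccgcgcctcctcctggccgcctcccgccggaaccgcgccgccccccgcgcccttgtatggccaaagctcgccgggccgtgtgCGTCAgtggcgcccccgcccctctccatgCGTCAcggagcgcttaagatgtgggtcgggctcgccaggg
The 4 matches lay at 233 to 229, 213 to 209, 69 to 65 and 40 to 36 bases before the start, in the orientation CGTCA, and 74.4% of the bases were G or C. At least 1 match on either strand was present in 17.8% of all windows, a share not matched for G or C content. Nr4a1 had values of 98.7, 348 and 233 CPM in young sets A, B and C and 126, 113 and 222 CPM in aged sets A, B and C. The lowest of all samples was a young one, so the ages overlapped. The log2 fold change was -0.56 (standard error 0.40, 95% interval -1.44 to 0.32, edgeR adjusted p = 0.345), an interval that holds both no change and a fall of more than 2-fold. It was -0.098 without young set B and -0.92 without young set A or without aged set C. With a coefficient of variation of 55.1% among young samples, Nr4a1 was the most variable of the 9 genes in that group.

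Genes that respond to stimulation and to warm digestion varied between samples as well. Hspa1a, a heat shock protein, was at 4797, 28138 and 35434 CPM in young sets A, B and C and at 3519, 19764 and 27764 CPM in aged sets A, B and C, so set A was low in both ages. Atf3, a stress-induced repressor, was highest in young set B, as Nr4a1 was, at 1238 CPM, and lowest in aged set B at 285 CPM. Fos was also highest in young set B, at 2789 CPM, but its lowest sample was aged set A at 1045 CPM. Nr4a2 and Nr4a3, the other NR4A receptors, had log2 fold changes of -0.18 and 0.27 (edgeR adjusted p = 0.694 and 0.578). Of 21 tested early response and digestion genes, 3 were higher (Socs3, Fosl1 and Ier3) and 0 lower in aged samples, with a median log2 fold change of 0.11. Whether handling of the tissue moved Nr4a1 was not tested.

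**Figure D4:**
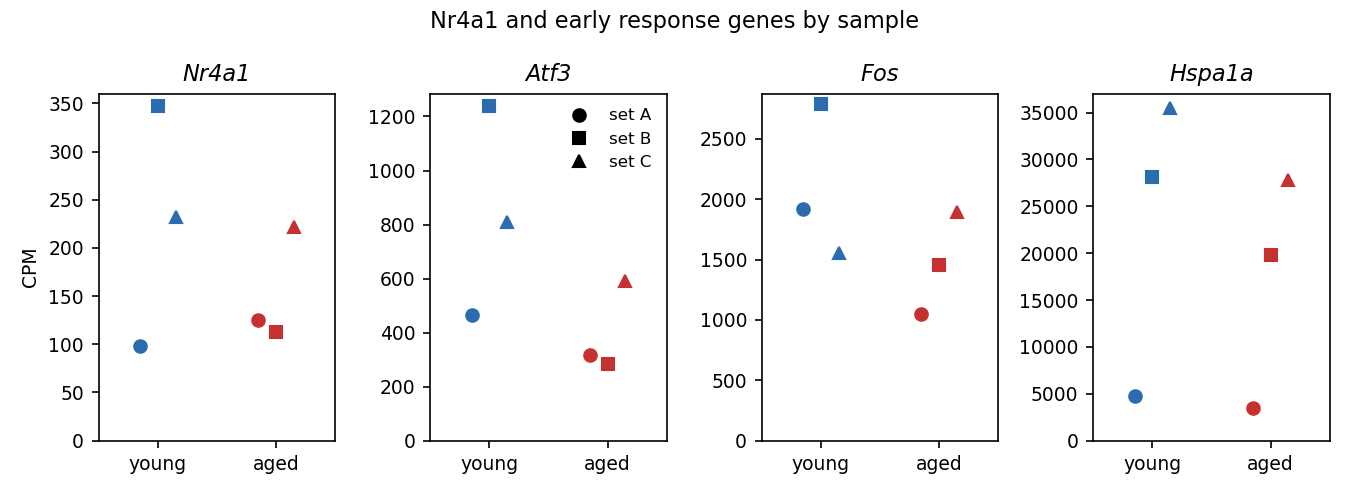
CPM on linear axes from 0 of Nr4a1, Atf3, Fos and Hspa1a in each sample, young in blue and aged in red, with a symbol for each set letter. Young set B is the highest sample for Nr4a1, Atf3 and Fos, and set A is the lowest of its age for Hspa1a in both ages.

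Among 11 tested genes of Ly6C-low monocytes, 2 were higher and 1 lower in aged samples, with a median log2 fold change of 0.19. These counts stand beside 9.73% higher and 7.97% lower over all genes tested. Cx3cr1, the fractalkine receptor, fell from 8.50 ± 3.08 to 2.34 ± 1.21 CPM (log2 fold change -1.87, edgeR adjusted p = 0.0155). Ace, the angiotensin-converting enzyme, was scarce, at 0.235 to 0.277 CPM in young and 1.21 to 2.59 CPM in aged samples. It passed the filter on low counts only through the aged group, so it had to differ and its call is no support for a direction of the list. Itgal, an integrin chain shared by most leukocytes, rose by a log2 fold change of 1.16 (adjusted p = 0.0319).

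Klf4, a zinc finger factor of monocyte differentiation, lies at chr4:55527143-55532466 on the minus strand. It was at 36.1, 42.1 and 42.1 CPM in young sets A, B and C and at 38.8, 21.2 and 43.0 CPM in aged sets A, B and C. Aged set B stood below the other 5 samples, which overlapped. This sample also had the highest sum of keratinocyte markers, and the part of keratinocyte transcripts in the Klf4 values was not tested. The log2 fold change was -0.22 (standard error 0.24, 95% interval -0.76 to 0.31, edgeR adjusted p = 0.546), and without aged set B it was 0.04. Of 11 tested relatives, 3 were higher and 0 lower in aged samples, with a median log2 fold change of 0.54. Over all genes tested, 9.73% were higher and 7.97% lower. Klf6, which is induced by injury, rose from 611 ± 82.5 to 1060 ± 212 CPM (log2 fold change 0.79, adjusted p = 0.0264). Klf3, a repressor, rose from 92.5 ± 3.50 to 161 ± 19.7 CPM (log2 fold change 0.80, adjusted p = 0.0122). Klf5, a factor of epithelial and muscle cells, was scarce at 0.528 to 0.940 CPM in young and 1.36 to 3.38 CPM in aged samples and passed the filter on low counts only through the aged group. Its highest value, 3.38 CPM, was in aged set B, the sample with the highest sum of keratinocyte markers. The part of these transcripts in Klf5 was not tested. Of 8 tested genes linked to KLF4 in alternative activation, Thbd, the thrombin receptor thrombomodulin, was higher (log2 fold change 0.88, adjusted p = 0.0390) and 0 were lower, with a median log2 fold change of 0.18.

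Pparg, the nuclear receptor of fatty acid uptake and storage, lies at chr6:115360951-115490399 on the plus strand. It had the lowest mean CPM of the 9 genes in both ages. Its values were 8.57, 16.9 and 12.9 CPM in young sets A, B and C and 5.46, 7.77 and 12.97 CPM in aged sets A, B and C. Set A was the lowest in both ages, and the ages overlapped. The log2 fold change was -0.55 (standard error 0.34, 95% interval -1.30 to 0.21, edgeR adjusted p = 0.283), from 78 to 288 counts per sample. The value was -0.28 without young set B, -0.30 without aged set A and -0.94 without aged set C.

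Of 13 tested targets of PPARγ, 2 were higher and 2 lower in aged samples, and the others did not pass. These counts stand beside 9.73% higher and 7.97% lower over all genes tested. The median log2 fold change of the list was 0.44. Lpl, the lipoprotein lipase, fell from 315 ± 37.7 to 78.8 ± 22.4 CPM (log2 fold change -1.997, edgeR adjusted p = 0.00136). Fabp5, a fatty acid carrier, fell from 682 ± 130 to 267 ± 61.8 CPM (log2 fold change -1.35, adjusted p = 0.00657). Plin2, which coats lipid droplets, rose from 3000 ± 551 to 5379 ± 350.4 CPM (log2 fold change 0.84, adjusted p = 0.0210), and Cd36, a fatty acid and lipoprotein receptor, rose by 0.83 (adjusted p = 0.0346). Of 11 tested nuclear receptor partners and cofactors, Ncoa3 was higher (log2 fold change 0.92, adjusted p = 0.0172) and 0 were lower, with a median of 0.28.

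**Figure D5:**
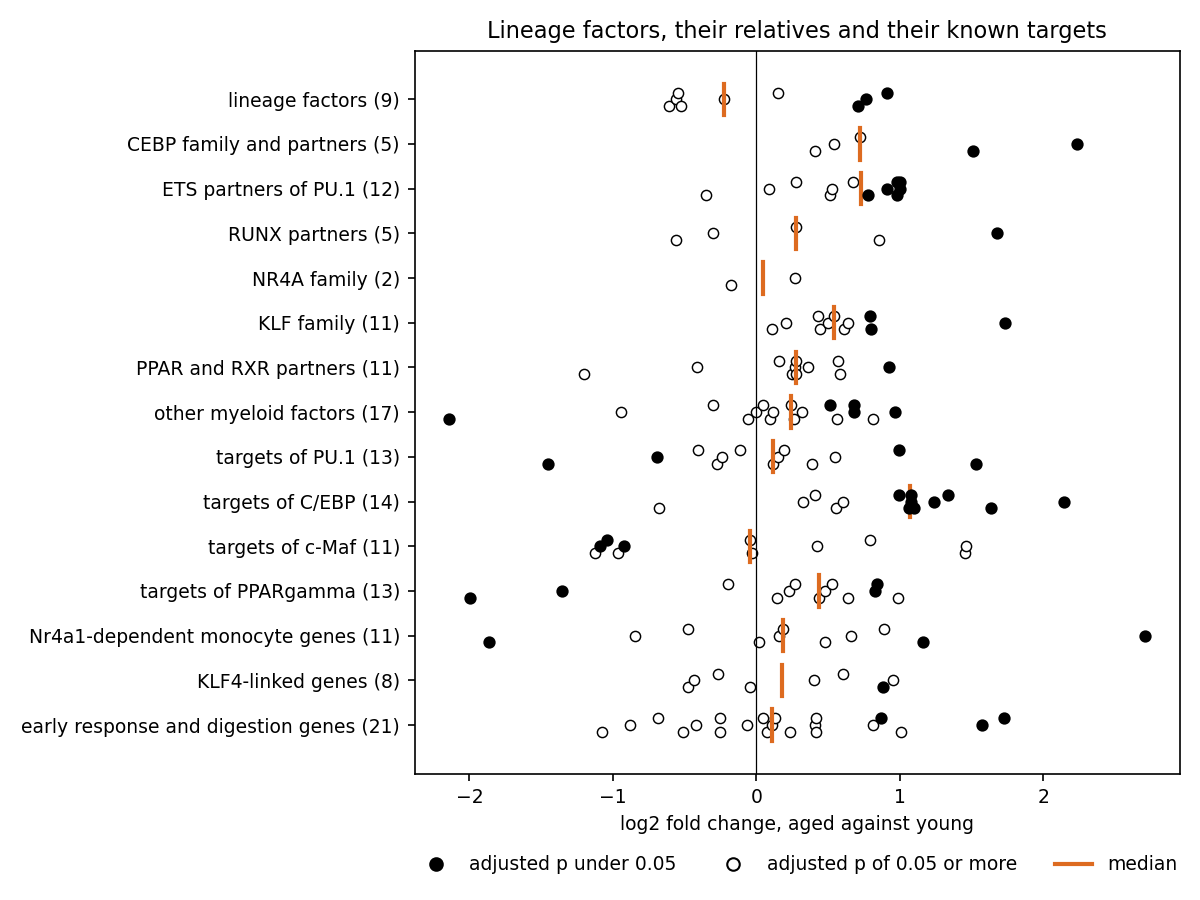
Log2 fold change of aged against young samples for each tested gene of each list, with the number tested in brackets, filled circles at an adjusted p under 0.05 in the edgeR test and a bar at the median of the list. Targets of C/EBP have 9 filled circles above 0 and a median of 1.07, whereas targets of PU.1 and of PPARγ have filled circles on both sides of 0.

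Other factors of myeloid development were tested for 17 genes, of which 4 were higher and 1 lower in aged samples, with a median log2 fold change of 0.24. These counts stand beside 9.73% higher and 7.97% lower over all genes tested. Tfec, a macrophage relative of MITF, rose from 15.9 ± 2.29 to 31.1 ± 3.97 CPM (log2 fold change 0.97, edgeR adjusted p = 0.0111). Stat3, Stat6 and Tfe3 were higher as well, with log2 fold changes of 0.68 and 0.52 for Stat3 and Stat6 (adjusted p = 0.0423 and 0.0374). Bhlhe41, a repressor of resident macrophages, is the gene called lower. It was scarce, at 0.997 to 1.65 CPM in young and 0.185 to 0.446 CPM in aged samples, and passed the filter on low counts only through the young group, so it had to differ.

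The genes whose pattern over the 6 samples was most like that of each factor that rose were found by the root mean square difference of centred log2 CPM. For Cebpb these were Zswim4 (0.0598) and Arrb1 (0.0606). For Cebpd they were Rbm48 (0.0523) and Far1 (0.0535). For Runx1 they were Scimp (0.0640) and Entpd1 (0.0780), the ectonucleotidase CD39.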

How the data were processed

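Macrophage RNA was amplified with the SMART-Seq v4 kit and sequenced as paired-end reads. Per the submitters' processing notes and the methods, the authors aligned reads with STAR 2.7.3a to mm10 and quantified Ensembl transcripts 102 in Partek, and they deposited expected counts per gene, without normalisation, of genes with a total of at least 10. The authors' second table holds normalised values of the same genes with the p-values and fold changes of their DESeq2 comparison, and was not used here.

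Expected counts were rounded to whole numbers, although the design named counts, and tested in R 4.3.3 with edgeR 4.0.16 (TMM scaling, filterByExpr by age, quasi-likelihood test, Benjamini-Hochberg adjustment over 11878 genes). Log2 CPM used a prior count of 2. Intervals are at 95%. DESeq2 1.42.0, limma-voom (limma 3.58.1), other scalings, filters and thresholds, a replicate block and leaving out each sample were alternatives. The code was tested on simulated data. Totals of 15270103 to 17927483 counts per sample set the precision of low genes.

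The members and the lists were chosen with earlier results of these data known. Named genes were all 9 members, at most 4 genes with the lowest adjusted p in each direction of a list, those used in a ratio or the sort, and the 2 nearest in pattern to each factor that passed. Other genes named were chosen after their values were seen. Gene coordinates are those of the deposited table, less 1 base at the end, where they then match the GENCODE annotation of GRCm38. Promoters matched 6 of the 9 members by symbol (not Spi1, Cebpd or Maf), and 7 motifs were searched on both strands: CGTCA, TTNNGCAA (C/EBP), GAGGAA (PU.1), TGTGGT (RUNX), AAAGGTCA (NR4A), TGANTCA (AP-1) and TATAAA. A gene, with the ratio and the list that hold it, is not reported here. Plots were drawn with Python 3.11.15 and matplotlib 3.10.9.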

Additional observations from a re-analysis of the deposited data

How the results depend on the processing

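Cebpb, Cebpd and Runx1 kept their direction in every alternative run, and DESeq2, limma-voom, edgeR with the size factors of DESeq2, edgeR without a filter and a minimum of 10 counts in every sample each passed the same 3 genes. Scaling by library totals moved the median log2 fold change of all genes to -0.20, and 1 of the 9 genes then passed (Runx1), while that of Spi1 was -0.023. A fold over 2 left 0 of the 9 genes and 1044 genes of all, and an adjusted p under 0.01 left 0 and 306. limma-voom passed 3646 genes of all. Leaving out each sample in turn passed 0 to 3 of the 9 genes and 218 to 2702 of all genes, and these counts were lowest without young set C. The log2 fold change of Klf4 ran from -0.41 to 0.041 over the left-out samples, the latter without aged set B. The difference in the log2 ratio of Cebpd to Cebpb ran from -0.30 to 0.14 when samples were left out, with values of 0.01, 0.05 and 0.14 without young set B, young set C and aged set A, and the ratios of Cebpb and Cebpd to Cebpa kept their sign. Except for thresholds and left-out samples, the cause of these shifts was not tested.

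With the set letter as a replicate block, 4 of the 9 genes passed, Maf included (log2 fold change -0.60, edgeR adjusted p = 0.0466), and 2114 of all genes. The correlation of deviations from the age means was 0.18 for set A, -0.02 for set B and 0.11 for set C, so the letters were not taken to pair the samples. Cebpa and Pparg had the fewest counts of the 9 genes, 78 to 384 per sample, and depth limits scarce genes of the lists such as Ace and Bhlhe41.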
